A study of Sus scrofa with 8 samples.

Results

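The genes described here are the cyclins, cyclin-dependent kinases, replication factors, kinetochore proteins, mitotic kinases and kinesins that the Affymetrix porcine GeneChip reads in isolated islets of neonatal pigs. They were chosen by symbol. A gene was taken when a probe set, the group of short oligonucleotides that reads a transcript, carried in the platform annotation a single symbol starting with CCNA, CCNB, CCND, CCNE, CDK and a digit, CDC6, CDC20, CDC25, CDC45, MCM and a digit, CENP, AURK, BUB, PLK, ORC, RFC, E2F, CKS or KIF, or was one of 13 further symbols such as TOP2A, PCNA and NDC80. This gave 67 genes of the 6765 with a single symbol, read by 88 probe sets, and the probe set with the highest mean log2 intensity stood for its gene. MKI67, CDK1 and TTK are not analysed here.

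In a dividing cell, D, E, A and B type cyclins switch on their kinases in turn. DNA replication starts at sites bound by the origin recognition complex, where the MCM helicase is loaded and, together with CDC45, opens the DNA. In mitosis the kinetochore, built on centromeric chromatin, ties each chromosome to spindle microtubules, and the spindle checkpoint holds back separation until every chromosome is attached. Islet endocrine cells divide more in neonatal life than in the adult, and the fraction of cells in cycle at any time is small.

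Islets were isolated by mechanical and collagenase digestion of the pancreas from male Duroc/Large White cross piglets and then cultured for 7 days in a Ham's F10 based medium with glucose, isobutylmethylxanthine, bovine serum albumin and nicotinamide. The 2 groups are 4 pigs labelled 3-day-old and 4 labelled 7-day-old at isolation, with 1 array per pig. The methods give this culture as part of the isolation, but do not state when the RNA for the arrays was taken. All animals came from 1 research herd. RNA was amplified for the arrays, with a further round where little cRNA was obtained, and neither the samples concerned nor any batch or scan information is given in the sources used here. Arrays are called by their deposited labels, because KIF11 and FBXO5, the 2 cell cycle genes that the study's supplement names on these arrays, differed here in the direction opposite to the one the study lists. Which of the 2 sets of labels is exchanged is not settled here, so each direction below is that of the deposited labels.

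The deposited values are linear intensities that the authors had scaled, with array medians between 172 and 178. Of the 24123 probe sets, 21574 were tested, after control probe sets and those below the 20th percentile of the array in all 8 arrays were left out. All 67 genes were tested, and 66 of them reached that percentile in all 8 arrays. The exception was KIF20A, with 7 arrays. The hormone transcripts INS, GCG, SST and PPY were among the bright probe sets in every array (16863 to 34489.7). By contrast, IAPP, also an islet hormone, was below the percentile in all 8. On the second principal component of all probe sets replicates 3 and 4 of the 7-day-old label stood apart from the other arrays and from one another.

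Of the 67 genes, 17 were higher in the arrays labelled 7-day-old and 0 were lower (limma, Benjamini-Hochberg adjusted p under 0.05 over all probe sets tested). That is 25.4% of the genes, against 5.21% of all probe sets higher and 5.47% lower (10.7% either way), and against 5.03% of all genes higher and 7.16% lower at 1 probe set per gene. At an unadjusted p under 0.05, 22 were higher (14.1% of all probe sets) and 1, CCND2, was lower (13.8%), and the methods' t-test called 15 higher and 0 lower. In 21 genes every array labelled 7-day-old lay above every array labelled 3-day-old (10.9% of all probe sets) and in 2 the reverse held (10.3%). The median log2 difference, labelled 7-day-old minus labelled 3-day-old, was 0.18 over the 67 genes and -0.000779 over all probe sets tested, and 49 of the 67 differences were above 0 (73.1%, against 49.9% of all probe sets and 46.6% of all genes). Without the general kinesins and the CDK and PLK family members with mostly other roles, 15 of 46 genes were higher (32.6%, beside 5.21% of all probe sets), with a median of 0.25. Of the 2 groups left out, 1 of 6 and 1 of 15 genes were higher, so the larger share follows from the division. In RNA of whole islets, a difference in the number of cells of a kind, dividing cells included, and one in RNA per cell cannot be told apart.

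**Figure D1:**
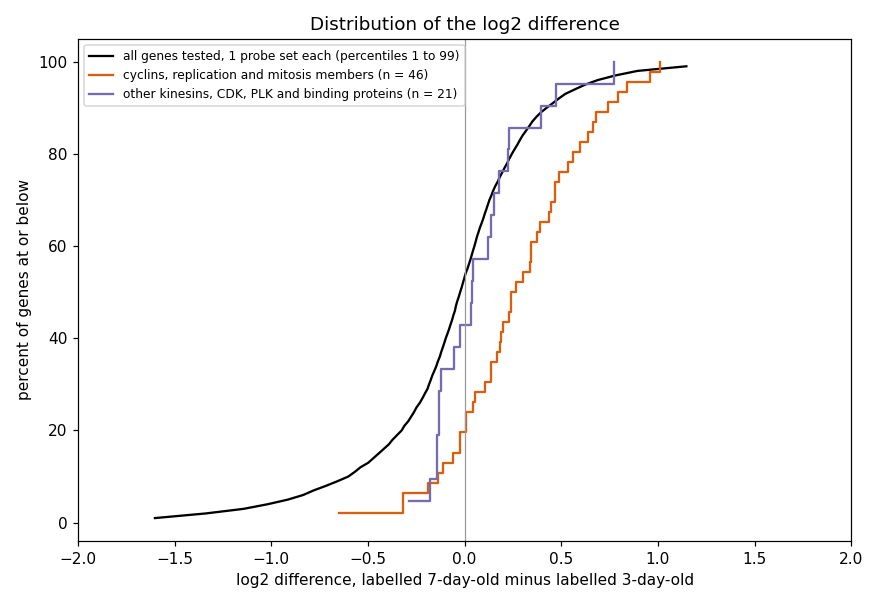
Percent of genes (vertical axis) at or below each log2 difference (horizontal axis, labelled 7-day-old minus labelled 3-day-old) for all genes tested and for 2 divisions of the cell cycle genes. The line of the 46 cyclin, replication and mitosis genes lies to the right of that of all genes over most of its range, and the line of the 21 other kinesins, CDK, PLK and binding proteins runs close to that of all genes in its upper part.

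The number of genes called depended on each of the 8 arrays. Without 1 array labelled 3-day-old, 8 genes were higher when it was replicate 1, 3 for replicate 2, 5 for replicate 3 and 10 for replicate 4, while the share of all probe sets higher was 3.50%, 2.25%, 2.20% and 4.34%. Without 1 array labelled 7-day-old, 4, 3, 10 and 8 genes were higher for replicates 1 to 4, beside 2.15%, 1.92%, 3.49% and 2.80% of all probe sets. With 7-day-old replicates 3 and 4, the arrays that stood apart, both left out, 2 genes were higher, beside 0.797% of all probe sets, and 23 were higher at an unadjusted p under 0.05, as were 10.3% of all probe sets. None of the 67 was called lower in any of these fits. NDC80, NUF2 and TOP2A kept their call whichever single array was left out.

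**Figure D2:**
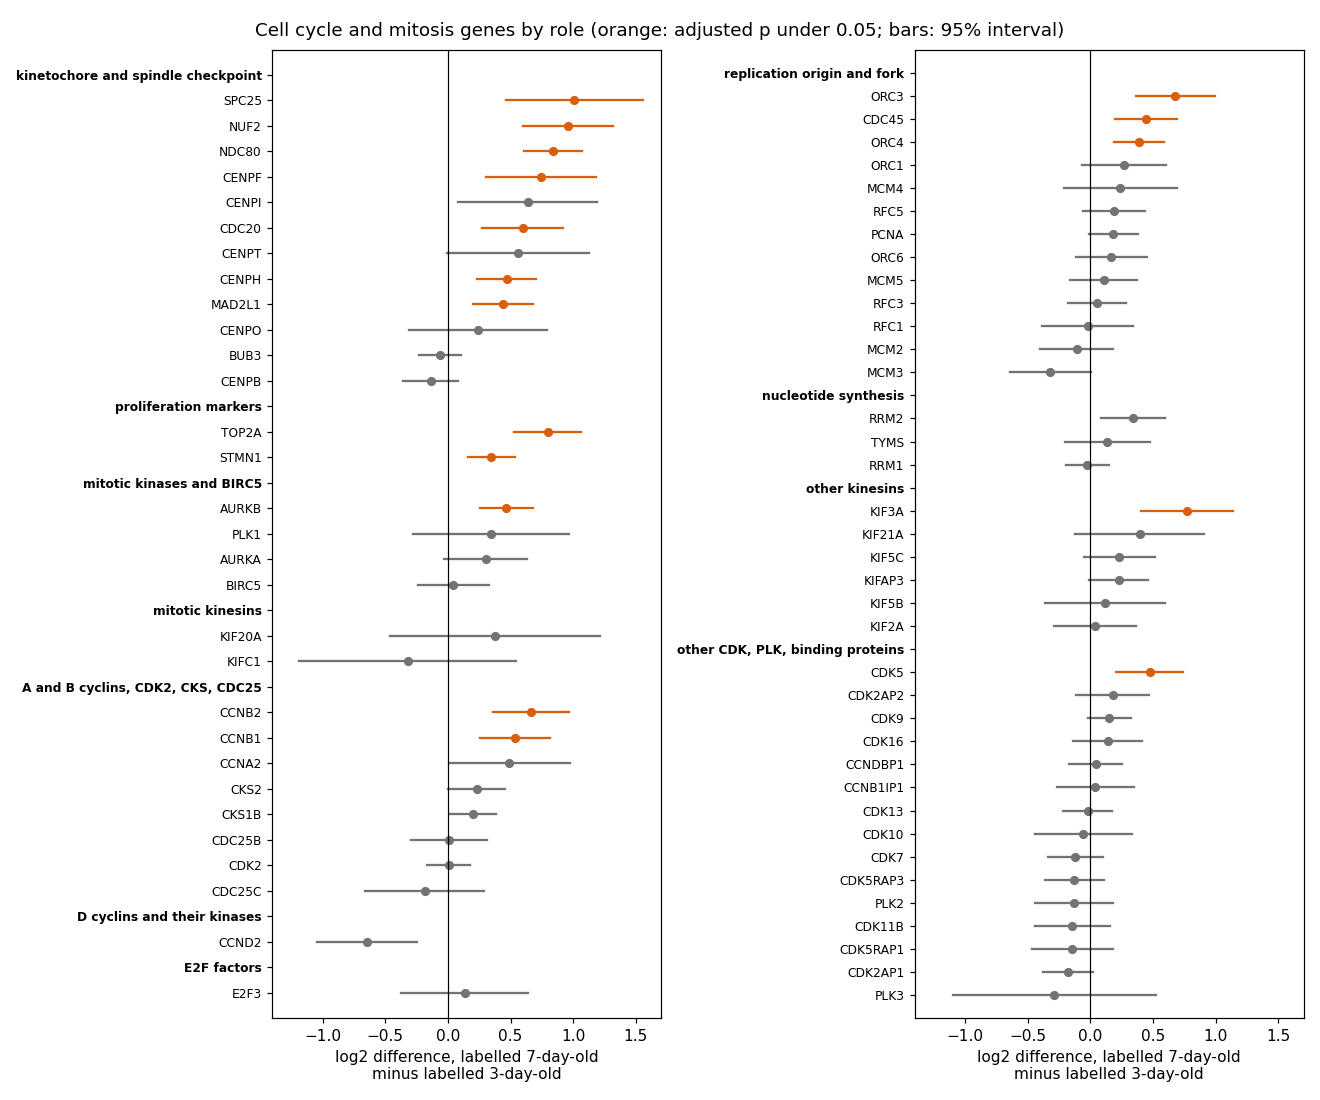
Log2 difference (horizontal axis, labelled 7-day-old minus labelled 3-day-old, 4 arrays each) of the 67 genes by role, as points with 95% intervals from limma. The 17 genes called are drawn in orange, and 7 of them are in the kinetochore and spindle checkpoint group.

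Kinetochore and spindle checkpoint genes made up the largest block of higher genes. Of 12 measured, 7 were higher (58.3%, beside 5.21% of all probe sets) and 0 lower, and the median log2 difference was 0.58. All 3 measured subunits of the NDC80 complex, the rod of the outer kinetochore that binds the microtubule end, were among them. SPC25 had intensities of 173, 137, 122 and 84.9 in the arrays labelled 3-day-old and 209, 312, 219 and 280.1 in those labelled 7-day-old (replicates 1 to 4, here and below). Its groups did not overlap, and the log2 difference was 1.01 (SE 0.24, adjusted p = 0.0365), a 2.01-fold higher level. NUF2 had 228, 224, 237 and 268 in the arrays labelled 3-day-old and 547, 473, 349 and 513 in those labelled 7-day-old. The 4 arrays labelled 3-day-old lay close together, all arrays labelled 7-day-old were above them with replicate 3 the lowest, and the log2 difference was 0.96 (SE 0.15, adjusted p = 0.0120). NDC80 itself, which pairs with NUF2 at the microtubule, had 335, 312, 378 and 357 in the arrays labelled 3-day-old and 680.3, 612, 621 and 558 in those labelled 7-day-old. It had the smallest adjusted p of the 67 genes, with a log2 difference of 0.84 (SE 0.10, adjusted p = 0.00598), 1.79-fold.

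NDC80 kept its call whichever array was left out (adjusted p at most 0.0223), and NUF2 kept its call whichever array was left out (adjusted p at most 0.0398). SPC25, whose arrays labelled 3-day-old ranged widely, with replicate 4 the lowest, lost its call without any 1 array other than 3-day-old replicate 1 (adjusted p up to 0.0928). The methods' t-test did not call SPC25.

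**Figure D3:**
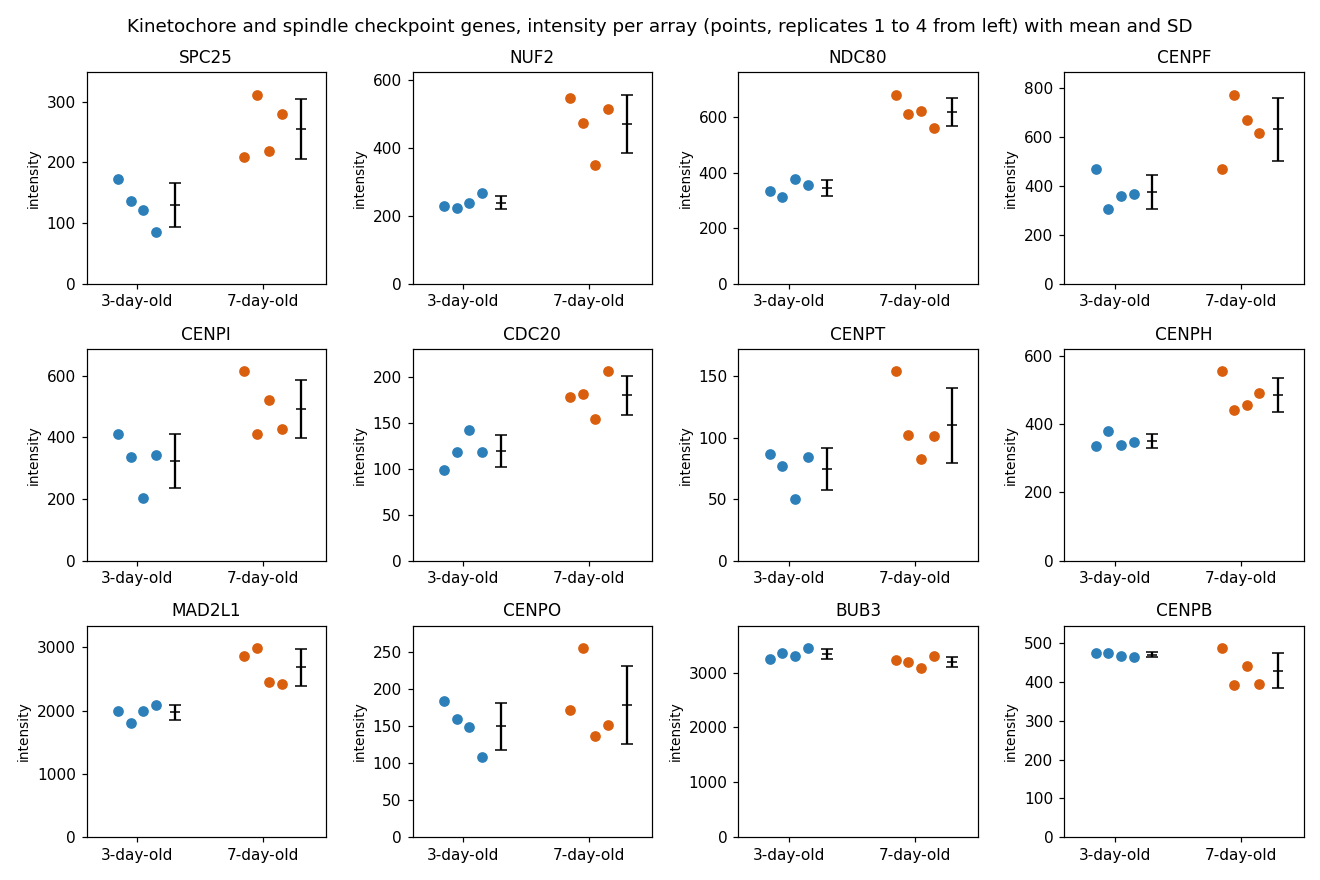
Intensity (vertical axis, linear, from 0) of the 12 kinetochore and spindle checkpoint genes in each array (points, replicates 1 to 4 from left to right within each deposited age label), and bars for mean and SD. The groups do not overlap for SPC25, NUF2, NDC80, CDC20, CENPH and MAD2L1, and overlap for the other 6 genes.

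CENPF, a large protein that gathers at kinetochores from late interphase, had 469, 306, 359.9 and 365 in the arrays labelled 3-day-old and 467, 773, 667 and 614 in those labelled 7-day-old. Here 7-day-old replicate 1 lay just below 3-day-old replicate 1, so the groups overlapped, and the log2 difference of 0.74 (SE 0.19, adjusted p = 0.0469) was the called one nearest to the threshold. CENPH belongs to the constitutive centromere network on which the outer kinetochore is built, and had 336, 379, 338 and 346 in the arrays labelled 3-day-old and 554, 439.9, 456 and 491 in those labelled 7-day-old. The 2 groups were apart, with a log2 difference of 0.47 (SE 0.10, adjusted p = 0.0284). The other measured subunits of that network were not called. CENPI had a log2 difference of 0.64 (95% interval 0.082 to 1.19, adjusted p = 0.133), CENPT of 0.56 (-0.00950 to 1.13) and CENPO of 0.24 (-0.31 to 0.79), and in each the 2 groups overlapped. CENPB, which binds a DNA motif of centromeric repeats, had one of -0.14 (-0.35 to 0.081).

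In the spindle checkpoint, MAD2L1, the protein that binds and holds CDC20, had 1999.9, 1812, 2002 and 2087 in the arrays labelled 3-day-old and 2867, 2987, 2457 and 2423 in those labelled 7-day-old. The arrays labelled 7-day-old were all above the rest, replicates 3 and 4 less so, and the log2 difference was 0.44 (SE 0.10, adjusted p = 0.0369). CDC20, the activator of the anaphase-promoting complex, had 99.1, 119, 142 and 118 in the arrays labelled 3-day-old and 178, 181, 155 and 206 in those labelled 7-day-old. Its lowest array labelled 7-day-old, replicate 3, was near the highest labelled 3-day-old, also replicate 3, and the log2 difference was 0.60 (SE 0.14, adjusted p = 0.0356). BUB3, a partner of the checkpoint kinases, was read at 3075 to 3442 with a difference of -0.063 (95% interval -0.23 to 0.10, adjusted p = 0.620). When arrays were left out, CENPF lost its call without any 1 array other than 3-day-old replicate 1 and 7-day-old replicate 1 (adjusted p up to 0.108), and CENPH lost its call without any 1 array other than 7-day-old replicate 3 (adjusted p up to 0.0762). MAD2L1 lost its call without any 1 array other than 7-day-old replicate 4 (adjusted p up to 0.0945). CDC20 lost its call without any 1 array other than 3-day-old replicate 3 and 7-day-old replicate 3 (adjusted p up to 0.0878).

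The 2 general proliferation markers of the set were both higher. TOP2A, the topoisomerase that untangles DNA before chromosomes separate, had 1064, 851, 1092 and 1080.3 in the arrays labelled 3-day-old and 1768, 1879.9, 1859 and 1568 in those labelled 7-day-old. Arrays labelled 3-day-old were close to each other except for replicate 2, which was lower, and none came near the arrays labelled 7-day-old. The log2 difference was 0.80 (SE 0.11, adjusted p = 0.00877), 1.74-fold, and TOP2A kept its call whichever array was left out (adjusted p at most 0.0322). STMN1 encodes stathmin, a microtubule destabiliser that is abundant in dividing cells and also in neurons. It was bright, at 11739.7, 11177, 12267 and 12915 in the arrays labelled 3-day-old and 15717, 15460.2, 15337 and 14539 in those labelled 7-day-old. The groups did not overlap and the log2 difference was small, 0.35 (SE 0.080, adjusted p = 0.0362), 1.27-fold. STMN1 lost its call without any 1 array other than 3-day-old replicate 4 (adjusted p up to 0.0939).

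Among the A and B cyclins and their regulators, 2 of 8 genes were higher, beside 5.21% of all probe sets, and 0 lower, with a median log2 difference of 0.21. Both were B cyclins, the partners of CDK1 at the entry into mitosis. CCNB2 had 292, 263, 278 and 366 in the arrays labelled 3-day-old and 519, 507, 426 and 441 in those labelled 7-day-old. All arrays labelled 7-day-old were above the rest, and the log2 difference was 0.67 (SE 0.13, adjusted p = 0.0216), 1.59-fold. CCNB1 had 806, 965, 1068 and 1074 in the arrays labelled 3-day-old and 1442, 1489.5, 1252 and 1456 in those labelled 7-day-old. The groups were again apart, with replicate 1 the lowest of the 3-day-old label and replicate 3 of the 7-day-old label, and the log2 difference was 0.53 (SE 0.12, adjusted p = 0.0328). CCNB2 lost its call without any 1 array other than 3-day-old replicate 4 and 7-day-old replicates 3 and 4 (adjusted p up to 0.0634), and CCNB1 lost its call without any 1 array other than 3-day-old replicate 4 and 7-day-old replicate 3 (adjusted p up to 0.0870).

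CCNA2, the A cyclin of S phase and G2, was read at 87.6, 98.8, 101 and 133 in the arrays labelled 3-day-old and 105, 140.1, 190.1 and 162 in those labelled 7-day-old. Replicate 1 of the 7-day-old label lay among the arrays labelled 3-day-old, and the log2 difference of 0.49 was not called (95% interval 0.00725 to 0.97, adjusted p = 0.174). The CDK-binding subunits CKS2 and CKS1B had differences of 0.23 (adjusted p = 0.177) and 0.20 (adjusted p = 0.147), and the groups did not overlap for CKS1B. CDK2, the partner of cyclins E and A, was nearly the same in all arrays by its brightest probe set (418 to 462, 95% interval of the log2 difference -0.16 to 0.17). Its dimmer probe sets had differences of -0.43 (-0.86 to -0.00551, adjusted p = 0.174) and -0.11 (-0.68 to 0.46), neither called. The phosphatases that activate cyclin-dependent kinases, CDC25B and CDC25C, had differences of 0.00808 (-0.29 to 0.31) and -0.19 (-0.66 to 0.28).

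CCND2, a D type cyclin that opens G1 and that in mice is needed for the postnatal growth of beta cells, stood on the other side. It was read at 449, 606, 456 and 428 in the arrays labelled 3-day-old and 344, 307, 355 and 235 in those labelled 7-day-old. Every array labelled 7-day-old was below every array labelled 3-day-old, and the log2 difference of -0.65 (SE 0.17) had an adjusted p of 0.0525, just outside the threshold. It was called lower under 5 of the other settings, a stricter filter on dim probe sets, an intensity trend with robust variances, array quality weights, an offset of 16 before log2 and the mean of all probe sets of each gene. In none of the 8 fits without 1 array was it called. No other D cyclin had a probe set with a single symbol. E2F3, a transcription factor of the G1 to S transition, was dim (31.8 to 62.2) with overlapping groups and a difference of 0.13 (95% interval -0.37 to 0.64).

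Of the mitotic kinases and BIRC5, 1 of 4 was higher, beside 5.21% of all probe sets. AURKB, the kinase of the chromosomal passenger complex that corrects faulty attachments, had 344, 362, 359.8 and 394 in the arrays labelled 3-day-old and 559.5, 488, 464 and 506 in those labelled 7-day-old. The groups did not overlap, and the log2 difference was 0.47 (SE 0.091, adjusted p = 0.0214). BIRC5, or survivin, is a subunit of the same complex and had 384, 409, 429 and 519 in the arrays labelled 3-day-old and 451, 411, 421 and 505 in those labelled 7-day-old. Here both labels covered the same range, and the difference was 0.044 (95% interval -0.24 to 0.33). PLK1 and AURKA, kinases of spindle assembly and the centrosome, had differences of 0.34 (-0.28 to 0.96) and 0.30 (-0.030 to 0.63), also with overlap. AURKB lost its call without any 1 array other than 3-day-old replicate 4 and 7-day-old replicate 3 (adjusted p up to 0.0613). Of the mitotic kinesins, KIF20A and KIFC1 were dim (26.7 to 203) and their differences, 0.38 and -0.32, had the widest errors of the set (SE 0.36 and 0.37).

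Replication genes were divided by complex. Of 13, 3 were higher (23.1%, beside 5.21% of all probe sets) and 0 lower, with a median of 0.18. The 3 were ORC3 and ORC4, subunits of the origin recognition complex, and CDC45, the helicase partner of MCM. ORC3 had 462, 429, 393 and 334 in the arrays labelled 3-day-old and 714, 706, 598 and 565 in those labelled 7-day-old. The groups were well apart, replicate 4 was the lowest of each label, and the log2 difference was 0.68 (SE 0.14, adjusted p = 0.0226), 1.60-fold. ORC4 had 869.6, 778, 829 and 803 in the arrays labelled 3-day-old and 1029.5, 1182, 1058 and 1028 in those labelled 7-day-old. The arrays labelled 7-day-old were all above the others by a small margin, with a log2 difference of 0.39 (SE 0.085, adjusted p = 0.0298). CDC45 had 448, 379, 368 and 442 in the arrays labelled 3-day-old and 585, 603, 512 and 525 in those labelled 7-day-old, also without overlap. Its log2 difference was 0.44 (SE 0.11, adjusted p = 0.0392), and CDC45 lost its call whichever array was left out (adjusted p 0.0518 to 0.102). ORC3 lost its call without any 1 of 3-day-old replicates 2 and 3 and 7-day-old replicates 1 and 2 (adjusted p up to 0.0658), and ORC4 lost its call without any 1 array other than 3-day-old replicate 1 (adjusted p up to 0.0806).

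The other 2 measured origin subunits, ORC1 and ORC6, had differences of 0.27 (95% interval -0.066 to 0.60) and 0.17 (-0.12 to 0.45) and were not called. None of the 4 measured MCM subunits was called, and their median log2 difference was -0.00327. MCM2 had a difference of -0.11 (95% interval -0.40 to 0.18), MCM4 of 0.24 (-0.21 to 0.69) and MCM5 of 0.10 (-0.17 to 0.37). MCM3 was read at 154, 133, 129 and 137 in the arrays labelled 3-day-old and 121, 86.0, 127 and 114 in those labelled 7-day-old. All arrays labelled 7-day-old were just below the others, and the difference of -0.32 was not called (adjusted p = 0.184). PCNA, the sliding clamp of the replication fork, had 1466, 1308, 1371 and 1509 in the arrays labelled 3-day-old and 1580.4, 1672, 1510.3 and 1653 in those labelled 7-day-old. The groups were apart by a narrow gap, and the difference of 0.18 was not called (adjusted p = 0.204). The clamp loader subunits RFC1, RFC3 and RFC5 had differences of -0.022, 0.053 and 0.19, with adjusted p between 0.301 and 0.944.

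None of the 3 genes of deoxynucleotide synthesis was called. RRM2, the ribonucleotide reductase subunit whose level follows S phase, was read at 414, 333, 396 and 383 in the arrays labelled 3-day-old and 529, 507, 422 and 471 in those labelled 7-day-old. The groups did not overlap, 7-day-old replicate 3 was just above the highest array labelled 3-day-old, and the difference was 0.34 (95% interval 0.081 to 0.59, adjusted p = 0.0943). RRM1, the large subunit, had a difference of -0.026 (-0.20 to 0.15), and TYMS, thymidylate synthase, of 0.13 (-0.21 to 0.47).

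The symbol rule also brought in kinesins known mainly for transport along microtubules or for microtubule turnover. Of 6, 1 was higher, beside 5.21% of all probe sets. It was KIF3A, a motor of intraflagellar transport in cilia, with 339, 346, 364 and 234 in the arrays labelled 3-day-old and 616, 545, 506 and 501 in those labelled 7-day-old. Among the arrays labelled 3-day-old replicate 4 was far below the other 3, all arrays labelled 7-day-old were above them, and the log2 difference was 0.77 (SE 0.16, adjusted p = 0.0254). Its partner in the same motor, KIFAP3, had non-overlapping groups as well, with a difference of 0.23 that was not called (adjusted p = 0.193). KIF5B, a conventional kinesin, had a difference of 0.12 (95% interval -0.36 to 0.60). KIF21A, KIF5C and KIF2A had differences of 0.39, 0.23 and 0.034, none called. KIF3A lost its call without any 1 of 3-day-old replicate 2 and 7-day-old replicates 1 and 2 (adjusted p up to 0.0686).

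Of the 15 other CDK, PLK and binding proteins, 1 was higher (6.67%, near the 5.21% of all probe sets) and the median log2 difference was -0.056. It was CDK5, a kinase best known from neurons that is activated by p35 and not by a cyclin, with 313, 359, 299 and 368 in the arrays labelled 3-day-old and 509.8, 462, 483 and 401 in those labelled 7-day-old. The groups did not overlap, and the difference was 0.47 (SE 0.11, adjusted p = 0.0407). CDK5 lost its call without any 1 array other than 3-day-old replicate 4 and 7-day-old replicate 4 (adjusted p up to 0.101), and also lost it with no filter on dim probe sets. The 2 brightest of this group, CDK2AP1 and CCNB1IP1, a CDK2-binding protein and a ubiquitin ligase, had differences of -0.18 (95% interval -0.38 to 0.020) and 0.040 (-0.27 to 0.35). CDK9, a kinase of transcript elongation, had non-overlapping groups with a difference of 0.15 (adjusted p = 0.238). The differences of the other 11 were -0.29 to 0.18.

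Of the 67 genes, 53 were read by 1 probe set and 14 by several, which gives a second reading of some results. The 4 probe sets of KIF3A all had differences above 0 (0.53 to 1.46) and 2 were called. ORC4 had 2 tested probe sets, both called higher (0.90 and 0.39), and CDC45 had 2, of which the dimmer one, with a difference of 0.30, was not called (adjusted p = 0.377). In CDK16, CDK2, CDK5RAP3, MCM5 and TYMS the probe sets differed in sign, and none of these was called. The probe sets of a gene share their arrays and are not further replicates.

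**Figure D4:**
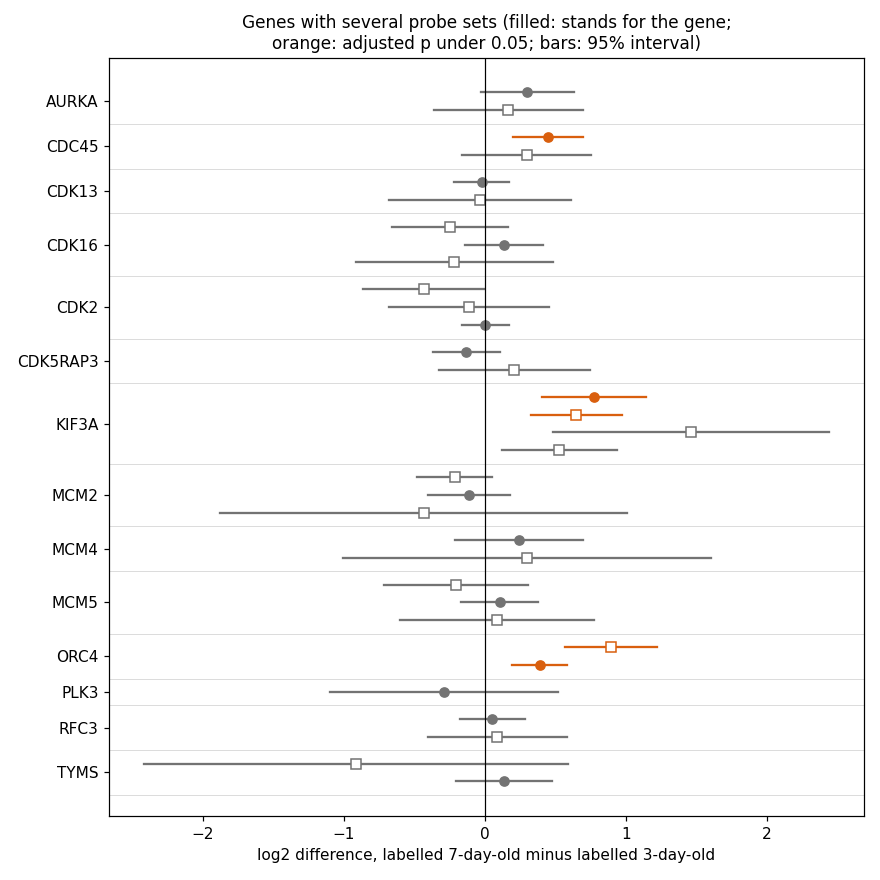
Log2 difference (horizontal axis, labelled 7-day-old minus labelled 3-day-old) with the 95% interval for every tested probe set of the 14 genes with several. Filled circles stand for the gene in the text, open squares are its other probe sets, and orange marks adjusted p under 0.05, which holds for 2 probe sets of KIF3A, 2 of ORC4 and 1 of CDC45.

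Array by array, the groups of genes did not all follow the same order. The mean deviation of the 12 kinetochore and checkpoint genes from their own mean over the 8 arrays was -0.34 to -0.15 on the log2 scale in the arrays labelled 3-day-old and 0.13 to 0.35 in those labelled 7-day-old, with replicate 3 the lowest of the latter. For the A and B cyclin group it was -0.22 to 0.051 and 0.042 to 0.21, and 3-day-old replicate 4 lay within the range of the arrays labelled 7-day-old. In the mitotic kinase group 3-day-old replicate 4 was again high (0.14) and 7-day-old replicate 2 was the lowest of its label (-0.047). The replication group was at -0.17 to 0.044 and 0.012 to 0.16, and 3-day-old replicate 1 lay above 7-day-old replicate 4. The other CDK, PLK and binding proteins showed no separation (-0.053 to 0.14 and -0.028 to 0.030). Over the 17 called genes, 7-day-old replicate 1 was the highest array of its label 9 times and replicate 4 the lowest 8 times, and 3-day-old replicate 2 was the lowest of its label 8 times and replicate 4 the highest 7 times.

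**Figure D5:**
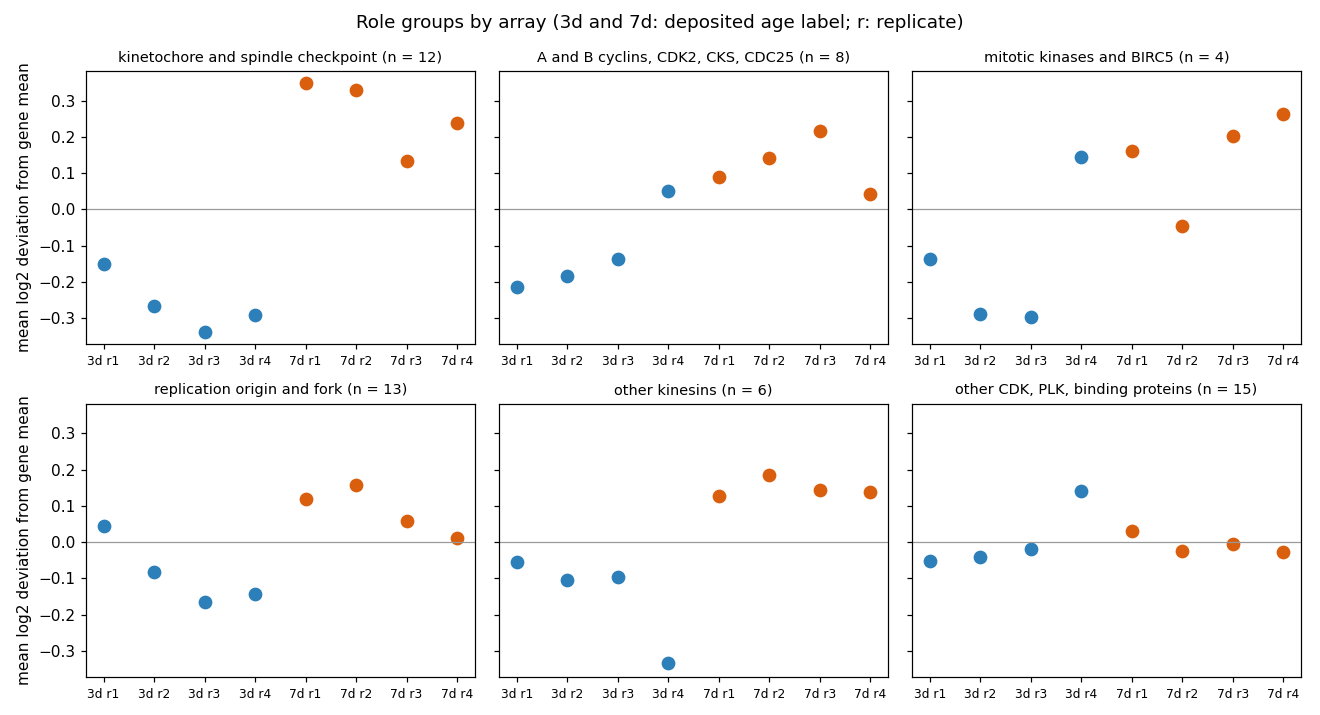
Mean log2 deviation from each gene's mean over the 8 arrays (vertical axis) in each array (horizontal axis, 3d and 7d for the deposited label and r for the replicate) for 6 groups of genes. The 2 labels are apart for the kinetochore and checkpoint group and for the other kinesins, and overlap in the other 4 groups.

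Cell cycle genes outside the symbol rule were read from 5 further lists. Together 17 of 77 tested genes were higher and 0 were lower, against the same 5.21% and 5.47% of all probe sets. Of 30 other mitosis genes 6 were higher, with a median log2 difference of 0.29. They were HMMR (1.18, adjusted p = 0.0446), a spindle protein whose groups overlapped, DLGAP5 (0.78, adjusted p = 0.0361) and NUSAP1 (0.70, adjusted p = 0.00888), which stabilise and bundle spindle microtubules, HMGB2 (0.57, adjusted p = 0.0198), a chromatin protein, FOXM1 (0.52, adjusted p = 0.0363), a transcription factor of G2 and mitosis genes, and CDCA3 (0.39, adjusted p = 0.0469). Of 13 genes of the cell cycle's ubiquitin ligases, their targets and regulators 3 were higher, namely UBE2C (0.87, adjusted p = 0.0185), the ubiquitin-conjugating enzyme of the anaphase-promoting complex, PTTG1 (0.58, adjusted p = 0.0474), or securin, a target of that complex, and SKP2 (0.90, adjusted p = 0.0486), a ligase subunit. SKP2 reached the 20th percentile in 2 arrays only, both labelled 7-day-old. It was thus tested only through the label in which it was higher, and the counts of 3 and 17 include it. SKP2 also lost its call with no filter, the methods' t-test, the intensity trend, median centring and the offset of 16 (adjusted p 0.0511 to 0.284), and PTTG1 with no filter, the t-test, median centring and quantile normalization (0.0518 to 0.0641). HMMR lost it with no filter and the t-test (0.0557 to 0.0749), CDCA3 with no filter and median centring (0.0557 to 0.0600), DLGAP5 with the t-test (0.0570), FOXM1 with the intensity trend (0.0549) and UBE2C with the mean of its probe sets (0.190).

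Of 20 other replication genes 4 were higher, with a median of 0.066, and they were the polymerase subunit POLE2 (0.66, adjusted p = 0.0287), the single-strand binding subunits RPA3 (0.47, adjusted p = 0.0320) and RPA2 (0.44, adjusted p = 0.0212), and the flap nuclease FEN1 (0.37, adjusted p = 0.0309). Of 10 CDK inhibitors, RB family members and p53 partners 2 were higher, CDKN2D (0.62, adjusted p = 0.0413), an inhibitor of CDK4 and CDK6, and CDKN3 (0.58, adjusted p = 0.0120), a phosphatase that acts on CDKs. Of 4 cohesin genes 2 were higher, RAD21 (0.48, adjusted p = 0.0268), a ring subunit, and ESCO1 (0.42, adjusted p = 0.0231), a cohesin acetyltransferase. CDKN2D lost its call with no filter and the methods' t-test (adjusted p 0.0522 to 0.0584), and FEN1 with the mean of its probe sets (0.385). In fits without 1 array, CDKN3 and NUSAP1 kept their call whichever array it was. The other 15 each lost it in 2 to 8 of the 8 fits, and each of the 8 arrays ended at least 1 of these calls, with adjusted p up to 0.118. CDCA3 and FOXM1 lost it whichever array was left out, and CDKN2D, SKP2, PTTG1, POLE2, FEN1 and DLGAP5 lost it in 7 of the 8 fits.

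KIF11, the motor that pushes spindle poles apart, and FBXO5, the inhibitor of the anaphase-promoting complex, carry no symbol in the platform annotation and were read through the probe sets that the study's supplement names. The study chose them on these same samples, so they are no independent evidence. KIF11 had 222, 224, 180.3 and 194 in the arrays labelled 3-day-old and 523, 396, 398 and 445 in those labelled 7-day-old. FBXO5 had 202, 184, 162 and 226 in the arrays labelled 3-day-old and 411, 438, 405 and 371 in those labelled 7-day-old. In both, every array labelled 7-day-old was far above the others, with log2 differences of 1.10 (SE 0.13, adjusted p = 0.00575) and 1.08 (SE 0.12, adjusted p = 0.00540). Both kept their call whichever array was left out.

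Markers of several cell types differed along with the cell cycle genes. The counts below stand beside 5.21% of all probe sets higher and 5.47% lower. The sums are of linear intensities, so the brightest markers of a list weigh most in them, called or not. Of 12 tested islet endocrine markers 6 were higher and 0 lower, namely NEUROD1, PCSK2, SCG3, CHGB, PCSK1 and SCG2 (log2 differences of 0.53 to 1.39), while INS, GCG, SST and PPY were not called. The summed intensity of the 13 endocrine markers on the array was 146996 to 183101 in the arrays labelled 3-day-old and 171175 to 210452 in those labelled 7-day-old. INS, GCG, SST and PPY made up most of that sum. Of 7 endothelial markers 3 were lower, TIE1, PECAM1 and CDH5 (-3.41, -1.70 and -1.41). VWF (0.27), KDR (-0.62), TEK (-2.15) and ENG (-0.76) were not called. TIE1 reached the 20th percentile in 4 arrays only, those labelled 3-day-old. It was at 2.74 to 9.67 in the arrays labelled 7-day-old, so the size of its difference rests on very dim values. The summed intensities of the 7 markers were 1395 to 1815 in the arrays labelled 3-day-old and 537 to 705 in those labelled 7-day-old. Of 7 fibroblast and stellate markers 4 were lower, DCN, PDGFRB, THY1 and COL1A2 (-2.05 to -0.71), with sums of 27613 to 34699.9 in the arrays labelled 3-day-old and 18279 to 21267 in those labelled 7-day-old. VIM, which made up most of these sums (means of 20516 labelled 3-day-old and 15200 labelled 7-day-old), was not called (adjusted p = 0.0637). LUM (-0.74, adjusted p = 0.163) and COL3A1, with a difference above 0 (0.11, adjusted p = 0.896), were not called either.

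Of 5 duct markers 2 were lower, KRT19 and MUC1 (-0.83 and -0.61), with sums of 17584 to 19566 in the arrays labelled 3-day-old and 15797 to 17015 in those labelled 7-day-old. EPCAM, which made up most of these sums (means of 14948 labelled 3-day-old and 14365 labelled 7-day-old), was not called (adjusted p = 0.694). Of 4 acinar markers 1, CPB1, was lower (-1.56), while AMY2 (0.52, adjusted p = 0.103, no overlap) and CELA1 (0.79, adjusted p = 0.0986) had differences above 0 that were not called, and the sums, 29759 to 32502 in the arrays labelled 3-day-old and 25599 to 36127 in those labelled 7-day-old, overlapped. CPA1, which made up most of these sums (means of 24089.5 labelled 3-day-old and 22338 labelled 7-day-old), was not called (-0.14, adjusted p = 0.663). None of 5 leukocyte markers was called, CD14, with groups that did not overlap, among them (-1.02, adjusted p = 0.127), and all were dim, with sums of 139 to 280.5 in the arrays labelled 3-day-old and 114 to 157 in those labelled 7-day-old. PTPRC and CD4, which define leukocytes and helper T cells, reached the 20th percentile in 1 array each. Neither of the 2 erythroid markers, HBB and ALAS2, was called, with sums of 1148 to 1439 in the arrays labelled 3-day-old and 1461 to 1573 in those labelled 7-day-old. These sums were nearly all HBB. In both genes the groups did not overlap, but in opposite directions (HBB 0.25, ALAS2 -0.68). Of these 16 marker calls 10 held whichever array was left out, and those of CDH5, COL1A2, PDGFRB, MUC1, PCSK1 and SCG2 did not. With the mean of the probe sets of a gene NEUROD1, MUC1 and PDGFRB lost their calls (adjusted p 0.318, 0.203 and 0.220), with the methods' t-test COL1A2, MUC1 and PDGFRB did, and with no filter COL1A2 and MUC1 did. NEUROD1, PCSK2, PECAM1, CDH5, DCN and CPB1 are, like KIF11 and FBXO5, listed by the study in the opposite direction. No marker on these lists was at an intensity of 0 in any array, but this does not show that each was expressed. Among the endothelial markers TIE1 reached the 20th percentile in 4 arrays, KDR in 5, and VWF and TEK in 6 each. The part of these cell types in the differences of the cell cycle genes was not tested.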

How the data were processed

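Islet RNA of 8 pigs was hybridised to the Affymetrix porcine GeneChip, 1 array per pig, and the sample labels gave the age and the pig number. The deposited values are linear intensities. The authors had scaled each array to a mean of 500.1, found by trimming 2% of the probe sets at each end. The sources used here do not name the software. A median normalization per probe set, which the methods mention, is absent from these intensities.

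Values under 1 (1528 of them) were raised to 1 before log2. A probe set was tested if it was no control (124 were) and stood at or above the 20th percentile of its array at least 1 time among the 8 arrays, which 21574 did. The labels were compared with limma 3.58.1 under R 4.3.3, by lmFit and eBayes without covariates, two-sided, with Benjamini-Hochberg adjustment over those probe sets. The fit was tested on simulated data. A fold is 2 to the power of the difference of mean log2 values, and intervals are those of limma. Each replicate is a separate pig. With 4 arrays a label the median SE was 0.17 over all probe sets and 0.13 over the 67 genes. The platform annotation gave 1 symbol to 10069 of 23999 probe sets, several to 198 and none to 13732. All 67 gene identifiers matched RefSeq with the same symbol. No sequence or position is given.

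Members and lists were chosen with earlier results of these data known. Values are given for the members called, the 2 brightest of each role, common proliferation markers, members whose probe sets disagree and up to 5 called genes of each other list. Members outside that rule were added after their values were seen, to complete their role, and so was CDCA3. The alternatives were no filter, a stricter filter (50th percentile in at least 4 arrays), the methods' t-test, an intensity trend with robust variances, centring on the median, quantile normalization, weights for array quality, a block for the replicate number, 16 added before log2, averaging the probe sets of a gene, and leaving arrays out.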

Additional observations from a re-analysis of the deposited data

Results flagged for a closer look

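In 3 genes 1 array lay far from the other 3 of its label (Dixon's criterion for 4 samples, applied on the log2 scale to the 41 members covered by the naming rule in each label, 82 groups in all, of which chance alone flags about 1 in 20). TOP2A was 851 in 3-day-old replicate 2 against 1064 to 1092 in the other arrays of that label. KIF3A was 234 in 3-day-old replicate 4 against 339 to 364. CCNB1IP1 was 1216 in 3-day-old replicate 1 against 1680.0 to 1769. TOP2A kept its call without the array that stood apart (log2 difference 0.71, adjusted p = 0.0226), as did KIF3A (0.63, adjusted p = 0.0215).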

How the results depend on the processing

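The replicate number did not pair the arrays (residual correlations of equal numbers -0.0135 to 0.00487). With the replicate number as a block, 0 members and 0 probe sets of all were called, while at an unadjusted p under 0.05 22 members and 12.03% of all probe sets were higher, and 5264 probe sets differed. The count of 17 members higher was 14 to 17 under the other settings apart from arrays left out, 3 to 10 with 1 array left out, and 2 without both 7-day-old replicates 3 and 4. The cause of these drops beyond the smaller number of arrays was not tested. The stricter filter also gave 17, but of 55 members tested, and CDC20 was not among those. Its 17 are thus not the same genes, and 13.96% of all probe sets were higher under it, against 5.21%. The count of members lower was 0 with 1 array left out (0 to 0) and 1, CCND2, under a stricter filter, an intensity trend with robust variances, array quality weights, an offset of 16, and each gene's mean over its probe sets. The median log2 difference of the members lay between 0.15 and 0.22 in all settings. No call reversed in direction. Calls over the whole table were 3491 with the intensity trend against 2305, and 1008 to 1854 with 1 array left out, 488 without both. Of 608 refits of 76 named genes without 1 array, 416 kept the call or its absence and 192 lost the call. Of the 17 called members, 13 lost it without at least 4 of the 8 arrays taken 1 at a time. CENPF also lost its call with no filter, the methods' t-test and array weights, and CDC45 with no filter and with the mean of its probe sets. With 4 arrays a label, a difference whose interval includes 0 cannot be told from 0.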
